A study of Homo sapiens with 8 samples.

Results

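Transcript levels of 59 nuclear genes that encode subunits of respiratory complexes I to IV were followed through hypoxia and LOXHD1 silencing in SK-N-MC, a cell line established from an Ewing sarcoma. The genes were taken by symbol from a fixed membership list and not by their values, though earlier results of these data were known. All 59 were found among 60332 rows and passed the filter on low values. They comprise 35 subunits of complex I, 4 of complex II, 9 of complex III and 11 of complex IV, with NDUFA4 counted in complex IV. RNA-seq of 8 libraries covers 4 groups of 2. All cells carried a lentiviral dCas9-KRAB, a dead Cas9 joined to a repressor domain, and were kept as puromycin-selected pools rather than clones. Control cells had the empty vector and were cultured in normoxia or for 16 h in 1% O2. The eKD1 and eKD2 pools, each with its own guide beside the GGAA repeat upstream of LOXHD1, were analysed here in hypoxia only. The comparisons ask how the respiratory chain genes responded to hypoxia in control cells and how each guide altered their level in hypoxia. The libraries of a group are described in the study's methods as biological duplicates, and the labels do not say how the cultures were kept apart.

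The respiratory chain passes electrons from NADH and succinate to oxygen across the inner mitochondrial membrane. Complex I takes them from NADH, complex II from succinate, complex III hands them to cytochrome c, and complex IV, cytochrome c oxidase, reduces oxygen to water. Core subunits of complex I carry the flavin and iron-sulfur clusters, whereas accessory subunits surround them and are needed for assembly or stability. Subunits made from mitochondrial DNA complete complexes I, III and IV and were not analysed here. In many cell types hypoxia leads HIF1 to limit respiration, for instance by exchanging COX4I1 for COX4I2 and by inducing NDUFA4L2.

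The labels were checked first. LOXHD1 stood at 156 and 169 FPKM in control normoxia, 93.0 and 91.1 in control hypoxia, 17.3 and 15.0 in eKD1, and 11.7 and 11.8 in eKD2. FPKM scales the reads of a gene by its transcript length and by library size, and permits levels of different genes to be set side by side. The hypoxia markers BNIP3, a mitophagy receptor, and CA9, a carbonic anhydrase, rose in hypoxic control cells, BNIP3 from 10.8 and 11.2 to 214 and 208 FPKM and CA9 from listed at 0 in both libraries to 82.8 and 72.0. All 6 Ewing sarcoma markers examined were expressed in every library, and LIPI was the lowest of them, at 10.8 FPKM. The depth relative to the deepest library was 76.0% and 55.7% in control normoxia, 100% and 96.3% in control hypoxia, 82.6% and 61.3% in eKD1, and 77.6% and 77.1% in eKD2; absolute depth is unknown. FPKM totals were not equal: 865107 and 877580 in control normoxia against 1041457 and 1018475 in control hypoxia. Fewer cells and less RNA per cell cannot be told apart in bulk libraries.

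The subunits were among the more abundant transcripts. In control normoxia the group means ran from 21.2 FPKM for NDUFV3, a small accessory subunit of complex I, through a median of 220 to 1738 for COX7C, a small subunit of complex IV. COX7C, NDUFA4, COX6C and COX7A2 headed the order of levels in all 4 groups. UQCRFS1, the Rieske iron-sulfur protein of complex III, and NDUFV3 were the lowest 2 throughout. Together the 59 genes supplied 1.97% and 2.05% of all FPKM in control normoxia and 2.35% and 2.31% in control hypoxia. The share was 2.15% and 2.18% in eKD1 and 1.92% and 1.91% in eKD2. Control hypoxia therefore held the highest share and eKD2 the lowest, with no overlap between neighbouring groups.

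**Figure D1:**
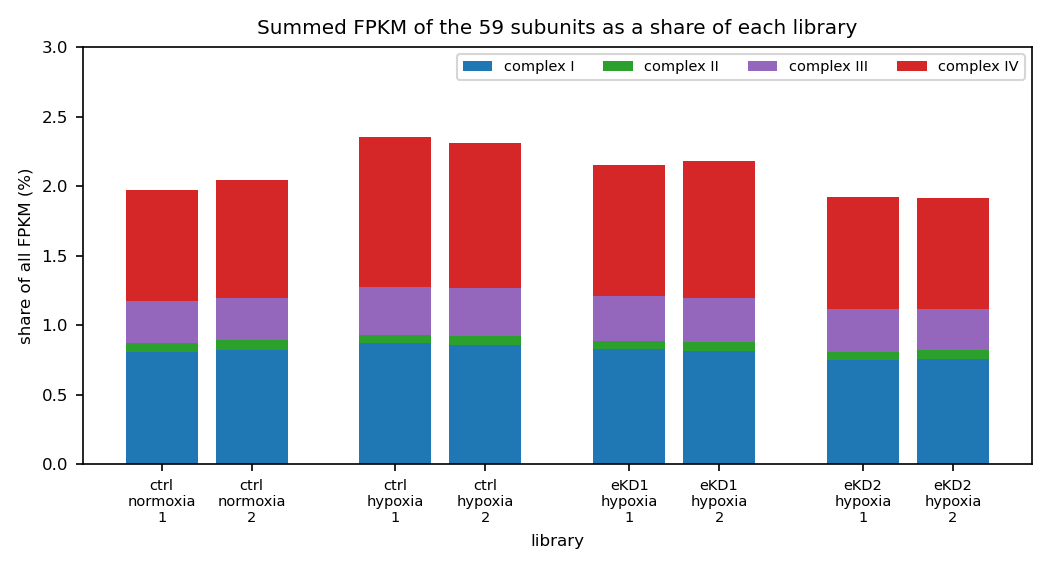
Share of all FPKM taken by the 59 subunits in each of the 8 libraries (vertical axis, percent), stacked by complex. The 2 control hypoxia libraries reach 2.35% and 2.31%, against 1.92% and 1.91% in eKD2, and the complex IV segment differs most in height.

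Most of the difference in the summed level lay in complex IV. Its 11 subunits summed to 7214 ± 379 FPKM in control normoxia (SD, n = 2) and to 10883 ± 451 in control hypoxia, 1.51 times as much. The sum was 9429 ± 59.9 in eKD1 and 7669 ± 50 in eKD2. Complex I went from 7114 ± 175 to 8899 ± 208 FPKM in hypoxia, and complex III from 2612 ± 41.5 to 3581 ± 31.3. Complex II changed least in proportion, from 574 ± 24.2 to 634 ± 17.9. With 2 against 2 libraries an exact permutation test of such a sum cannot give a two-sided p below 0.333, so the tests below are those of limma on each gene.

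Since many of these genes moved together, their promoters were searched for short motifs of factors known for respiratory genes. The window ran from 250 bases before to 50 after the start of the canonical transcript (GENCODE 44, GRCh37) and could be read for 58 of the 59 genes and for 19874 protein-coding genes in all. On either strand, the NRF1 motif, of which 3 matches are in capitals below, was present in 14 of 58 member promoters (24.1%) and in 8.43% of all. The ETS motif CCGGAAG, bound by GABP among others, was in 18 (31.0%) and in 14.1% of all. The YY1 motif AANATGGCG was in 18 (31.0%) and in 5.01% of all; it includes an ATG and near the start can coincide with the first codon. The HIF core ACGTG was in 14 (24.1%), beside 23.3% of all. None of the 4 motifs contains another, and a match describes the sequence only, not a bound site.

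By complex, the counts are small and no difference between them was tested. NRF1 matches lay in 5 of 9 complex III promoters and in 1 of 11 of complex IV, whereas ETS matches lay in 5 of 11 of complex IV. YY1 matches lay in 5 of the 6 core subunits of complex I and in 7 of 28 accessory ones. Of the 36 promoters of members called higher in hypoxia, 11 (30.6%) held ACGTG and 8 (22.2%) the YY1 motif, and of the other 22 promoters 3 (13.6%) and 10 (45.5%) did; neither difference was tested. The windows below are 30 bases each, 5′ to 3′ on the strand of the gene (GRCh37), with the motif in capitals, and show the ETS letters of 3 complex IV genes, the NRF1 letters of 3 complex III genes and the YY1 letters of 2 core subunits of complex I.
COX6B1, ETS, chr19:36139202-36139231, plus strand: acctctctcagCTTCCGGctggtagtagtt
COX8A, ETS, chr11:63742063-63742092, plus strand: cagctccagaaCTTCCGGccagcgcagcca
COX5B, ETS, chr2:98262477-98262506, plus strand: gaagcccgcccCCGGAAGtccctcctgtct
UQCR10, NRF1, chr22:30163340-30163369, plus strand: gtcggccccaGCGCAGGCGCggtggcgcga
UQCRC1, NRF1, chr3:48647107-48647136, minus strand: gtacggtactGCGCCTGCGCcgcgaccgcc
UQCRFS1, NRF1, chr19:29704070-29704099, minus strand: gcgcctcctcGCGCCTGCGCcgtggttgga
NDUFS1, YY1, chr2:207024134-207024163, minus strand: tagccgaggcCGCCATATTgaataagcgac
NDUFS8, YY1, chr11:67797958-67797987, plus strand: tccccaaaccAACATGGCGgccccctacaa

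In control cells, hypoxia raised the level of most respiratory chain genes. Of the 59 members 38 passed the test (limma, Benjamini-Hochberg adjusted p under 0.05 over 15372 genes), 36 of them higher and 2 lower in hypoxia. In all genes tested, 32.2% were called, 16.2% higher and 16% lower. The median difference on the log2(FPKM + 1) scale was 0.40 over the members and 0.01 over all genes. All 11 members of complex IV rose, 7 of 9 in complex III, 17 of 35 in complex I and 1 of 4 in complex II. The direction of all 38 was retained when libraries were set to equal FPKM totals, which shifted the median of all genes to -0.19. Then 22 members were called higher and 6 lower. Called higher were 8 of 11 in complex IV and 4 of 9 in complex III. In complex I 9 of 35 were called higher and 5 lower, and in complex II 1 of 4 higher and 1 lower. The complex I median was 0.05 in place of 0.29. The member median lay 0.35 above that of all genes instead of 0.38, and 28.4% of all calls were higher instead of 50.3%. When any 1 of the 4 libraries was left out, none of the members was called, nor was any of the 15372 genes, while 34 to 42 members had an unadjusted p under 0.05 and all 38 kept their sign. Both hypoxic libraries lay above both normoxic ones in 46 members and below them in 4, against 35.9% and 34.5% of all genes.

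**Figure D2:**
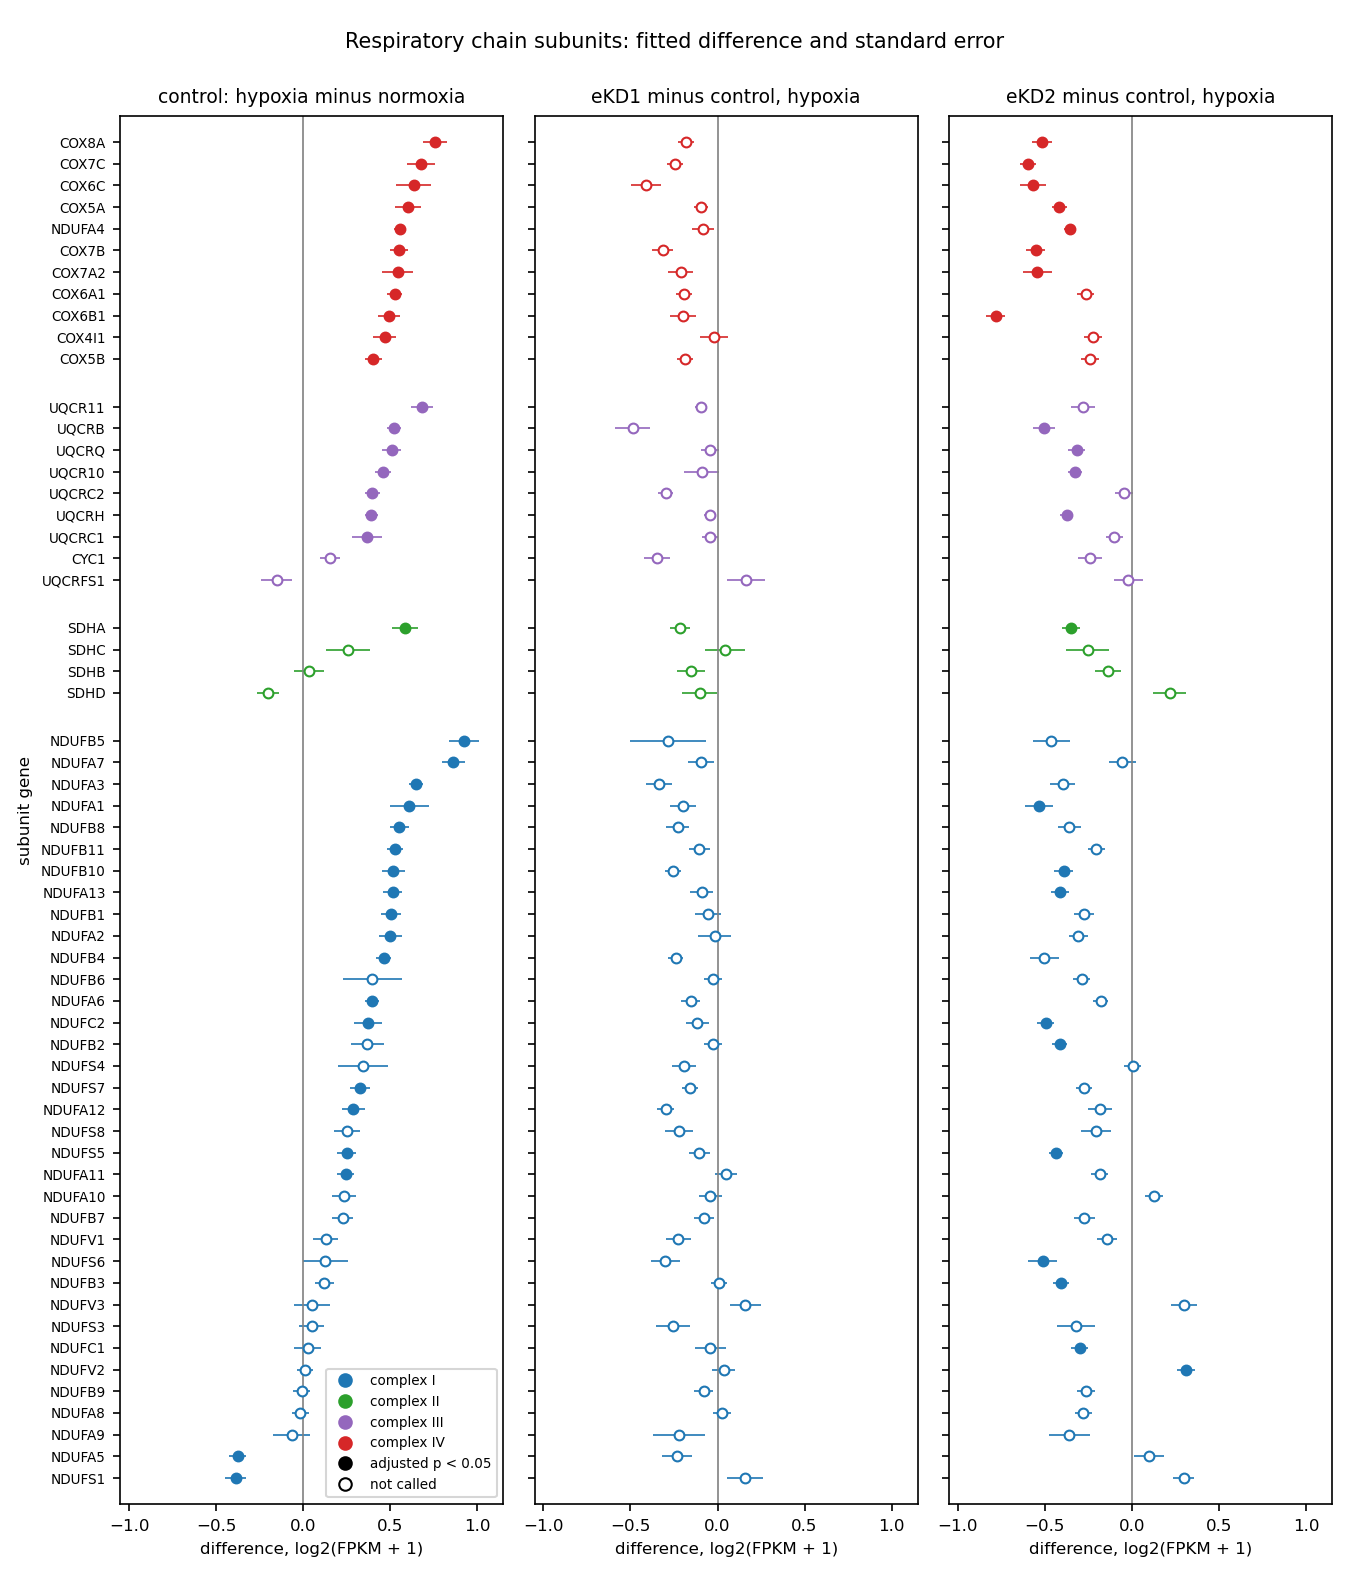
Fitted difference in log2(FPKM + 1) for each of the 59 subunits (rows, by complex), with its standard error, for hypoxia in control cells and for eKD1 and eKD2 against control in hypoxia; filled points passed an adjusted p under 0.05. All 11 complex IV subunits lie to the right of 0 in hypoxia, and all 11 lie to the left in both eKD panels, where 8 pass in eKD2 and none in eKD1.

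Complex IV moved as a block in hypoxia, over a narrow range from 0.40 for COX5B to 0.76 for COX8A (log2 difference). COX8A, a small subunit of complex IV (ENSG00000176340, chr11:63742092-63744015), was at 364 and 407 FPKM in normoxia and at 645 and 660 in hypoxia. Both hypoxic libraries stood clear of the normoxic ones, and the fitted difference was 0.76 ± 0.07 (SE; adjusted p = 0.00941). COX7C (chr5:85913745-85916779), the most abundant subunit transcript, went from 1622 and 1854 to 2859 and 2683 FPKM (0.68 ± 0.08, adjusted p = 0.0138). COX6C went from 875 and 1009 to 1551 and 1373 (0.63 ± 0.10, adjusted p = 0.0221). NDUFA4, first assigned to complex I and now placed in complex IV, rose from 1443 and 1478 to 2174 and 2121 FPKM (0.56 ± 0.03, adjusted p = 0.00725). The 2 libraries of each group lay close together for this gene relative to the step between groups. Counting NDUFA4 in complex I instead left 10 of 10 complex IV genes higher.

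The isoforms described for hypoxia were low in every library beside their ubiquitous counterparts, and none passed the test. COX4I1, the ubiquitous form of the subunit 4, rose from 268 and 289 to 400 and 372 FPKM (0.47 ± 0.07, adjusted p = 0.0177). COX4I2, its hypoxia-inducible counterpart, was listed at 0 in both normoxic libraries and at 0.335 and 0.174 FPKM in hypoxia. NDUFA4L2, the HIF1-responsive paralogue of NDUFA4, was at 0.221 and 0.451 FPKM in normoxia and 0.691 and 0.864 in hypoxia (adjusted p = 0.178), and its highest value anywhere was 4.84 in replicate 2 of eKD2. Of the other tissue forms, COX6B2 went from 0.222 and 0.592 FPKM in normoxia to 2.62 and 1.36 in hypoxia (1.07 ± 0.31, adjusted p = 0.07). COX8C was listed at 0 in both normoxic libraries and at 0.998 and 0.520 FPKM in hypoxia, under the filter. COX6A2, COX7A1 and COX7B2 were listed at 0 in all 8 libraries.

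In complex III the small subunits and the core proteins rose, and the members that carry the redox centres did not pass. With equal FPKM totals 4 of the 9 members were called higher. UQCR11 (chr19:1597168-1605472), a small subunit, went from 310 and 343 to 526 and 523 FPKM (0.68 ± 0.06, adjusted p = 0.00952). UQCRB, long known as the ubiquinone-binding protein, went from 586 and 576 to 851 and 817 (0.52 ± 0.04, adjusted p = 0.0082). UQCRQ, another small subunit, went from 422 and 444 to 636 and 597 (0.51 ± 0.05, adjusted p = 0.0111). CYC1, cytochrome c1, was at 301 and 296 FPKM in normoxia and 320 and 346 in hypoxia (0.16 ± 0.06, adjusted p = 0.115). UQCRFS1 was at 24.8 and 23.4 in normoxia and 20.9 and 22.2 in hypoxia (-0.15 ± 0.09, adjusted p = 0.263). Its groups were separate but close.

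Complex I was divided. Among 29 accessory subunits 16 rose and 1 fell, and among 6 core subunits 1 rose, 1 fell and 4 did not pass. With equal FPKM totals 9 of the 35 subunits were called higher and 5 lower. The largest difference of any member was in NDUFB5, an accessory subunit of the membrane arm (chr3:179322478-179345435), which went from 204 and 236 FPKM to 423 and 412 (0.93 ± 0.09, adjusted p = 0.00945). NDUFA7, an accessory subunit, went from 89.9 and 93.5 to 174 and 161 (0.86 ± 0.07, adjusted p = 0.00809). The gene overlaps RPS28 on the opposite strand, and RPS28 went from 2161 and 2245 FPKM to 3889 and 3863; the libraries are not described as stranded, so reads in the overlap cannot be told apart. NDUFA3, also accessory, went from 342 and 332 to 525 and 531 (0.65 ± 0.04, adjusted p = 0.00717).

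The core subunits of complex I ranged from -0.39 to 0.32, and no test compared them with the accessory ones. NDUFS1, the largest iron-sulfur subunit (ENSG00000023228, chr2:206979541-207024233), fell from 83.6 and 81.2 FPKM to 61.6 and 63.9, a change of -0.39 ± 0.06 (adjusted p = 0.0199). NDUFA5, an accessory subunit of the peripheral arm and the other member that fell, went from 133 and 136 to 105 and 102 (-0.38 ± 0.05, adjusted p = 0.0157). NDUFV1, the flavin-binding subunit, was at 339 and 311 in normoxia and 341 and 370 in hypoxia (0.13 ± 0.07, adjusted p = 0.251). NDUFS7 was the 1 core subunit called higher, from 95.8 and 101 to 124 and 123 FPKM (0.32 ± 0.06, adjusted p = 0.0254), and NDUFS8, with 189 and 185 against 236 and 211 (0.25, adjusted p = 0.0715), did not pass; both were picked out after their values were seen.

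In complex II only SDHA, the flavoprotein that oxidises succinate, passed the test. It went from 78.0 and 87.3 FPKM to 126 and 123 (0.59 ± 0.08, adjusted p = 0.0154). Its pseudogenes SDHAP1, SDHAP3 and SDHAP4 sum to 69% of its own mean, the largest share among the members, and SDHAP4 went from 32.6 and 34.8 to 51.3 and 54.1, so the division of reads between them is uncertain. SDHB, the iron-sulfur subunit, was at 333 and 365 FPKM in normoxia and 378 and 337 in hypoxia (0.03 ± 0.09, adjusted p = 0.794), and its groups overlapped. The membrane anchors SDHC and SDHD had differences of 0.26 and -0.20, and neither passed.

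**Figure D3:**
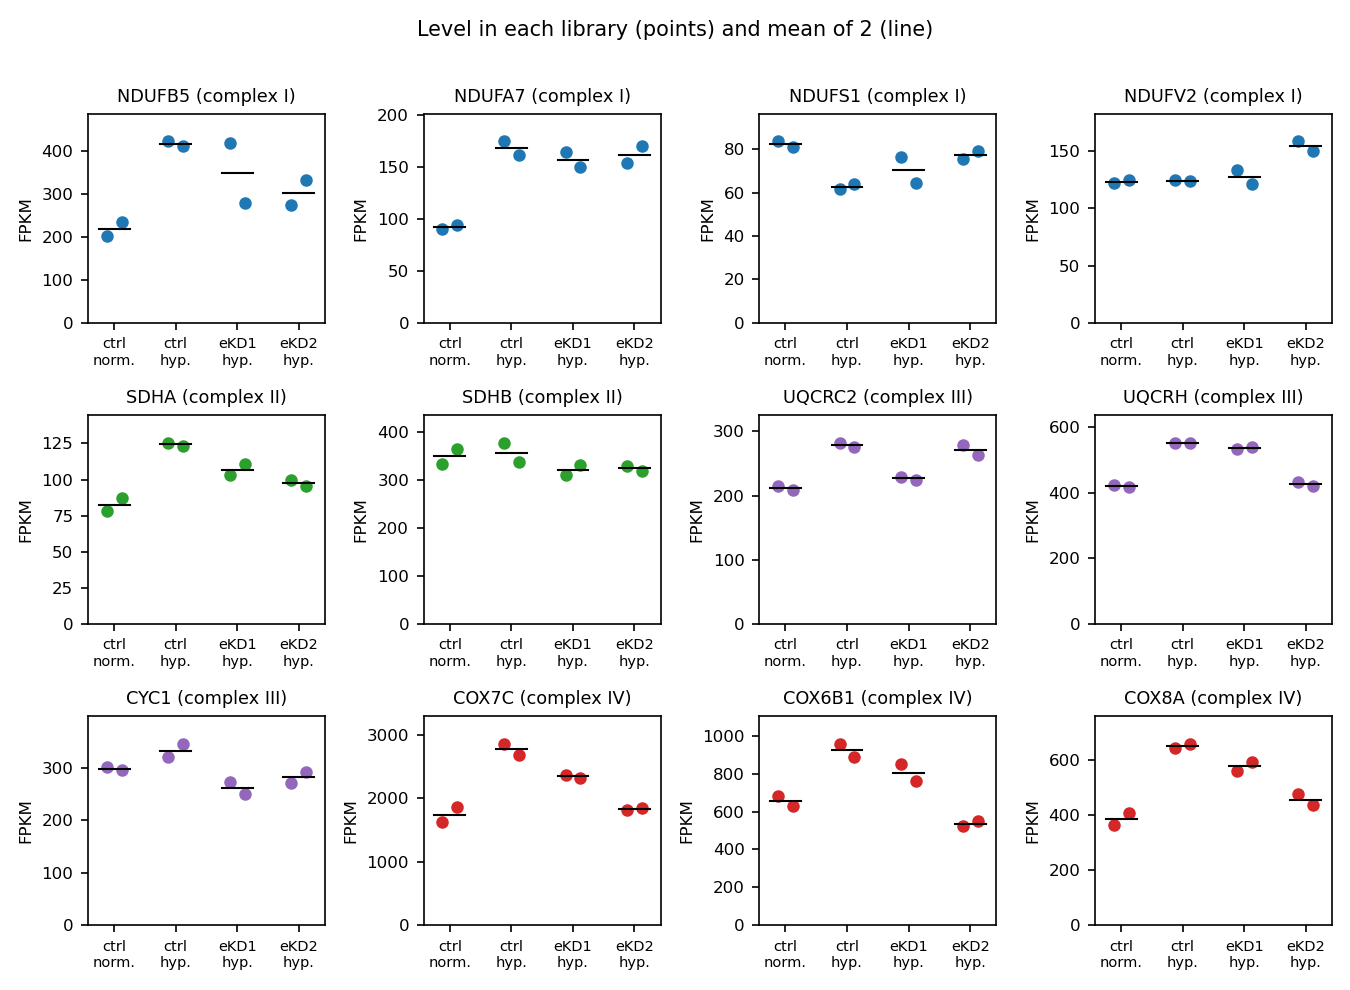
FPKM of 12 subunits in each library (points, linear axis from 0) with the mean of the 2 libraries of each group (line). COX7C, COX6B1 and COX8A are highest in control hypoxia, NDUFS1 is lowest there, and SDHB overlaps between normoxia and hypoxia.

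Transcript length went with the direction of change among protein-coding genes that reached the lowest member level. Canonical transcripts of the members are short, with a median of 763 nt, and 35 of the 59 are under 1000 nt. The other protein-coding genes had a mean of at least 22.8 FPKM, the lowest of any member. They were not matched to the members by level. Called higher in hypoxia were 46.3% of 436 with transcripts under 1000 nt, against 20.4% of 5062 with longer ones. The members called higher were 24 of 35 (68.6%) in the short class and 12 of 24 (50%) in the long class. The medians were 0.46 for short members and 0.31 for the other short genes, and 0.37 for long members and -0.06 for the other long genes. Over the 59 members the rank correlation of the change was 0.48 with level and -0.22 with transcript length. The part of transcript length or level in the result was not tested.

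**Figure D4:**
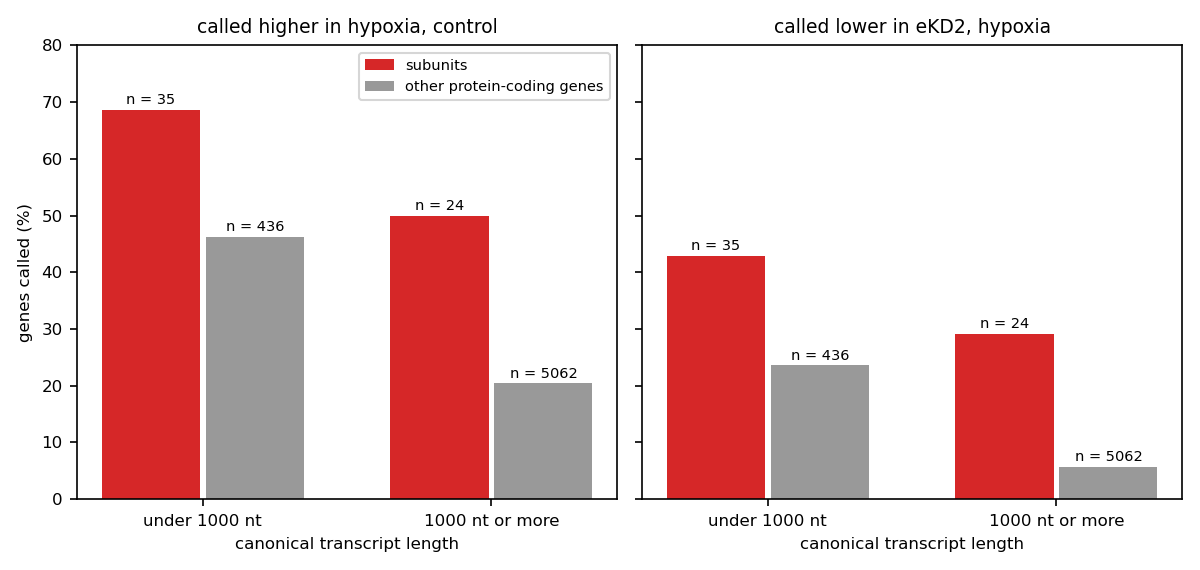
Percent of genes called higher in hypoxic control cells (left) and called lower in eKD2 (right), for the subunits and for other protein-coding genes of at least the same lowest mean level, in 2 classes of transcript length; n is given over each bar. In hypoxia the subunits reach 68.6% and 50%, above 46.3% and 20.4% of the other genes. In both panels the class under 1000 nt stands above the longer class, for subunits and for other genes alike. The other genes are not matched to the subunits by level.

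In eKD1 no respiratory chain gene passed the test against control hypoxia. Among all genes 0.0651% were called, 10 of 15372. The member median was -0.12 against 0.00 over all genes, 51 of 59 members lay below 0, and at an unadjusted p under 0.05 there were 20, all lower, a share to be read beside the 21.7% of all genes at that p. The members with the smallest p were UQCRC2, NDUFA12 and NDUFB10. UQCRC2, a core protein of complex III, measured 283 and 276 FPKM in control hypoxia and 229 and 225 in eKD1 (-0.30, adjusted p = 0.114). NDUFA12 was at 273 and 262 against 220 and 214 (-0.30, adjusted p = 0.117), and NDUFB10, another accessory subunit of complex I, at 320 and 311 against 261 and 267 (-0.26, adjusted p = 0.12). In each of these the libraries of the groups did not overlap, but the genes were picked by smallest p, so this adds no support. Complex IV was furthest from 0, with all 11 members below it and a median of -0.19. Both eKD1 libraries lay below both controls in 36 members and above them in 3, against 26% and 27.6% of all genes. With equal FPKM totals 41 members lay below 0, and the member median was -0.04. A fit that shared its spread over all 8 libraries called 4 members, all lower, and 4.95% of all genes.

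In eKD2 the respiratory chain genes were lower than in control hypoxia. The test was passed by 23 members, 22 lower and 1 higher, and 9.61% of all genes were called, 3.81% lower and 5.8% higher. The member median was -0.29 and that of all genes 0.05. By complex, 8 of 11 fell in complex IV (median -0.52), 4 of 9 in complex III (-0.28), 9 of 35 in complex I (-0.28) and 1 of 4 in complex II (-0.20). These calls were sensitive to the fit: none remained without the variance trend, without the filter on low values, or when any 1 library was left out, whereas in each fit that left out a library the sign of all 23 held and 35 to 41 members had an unadjusted p under 0.05. With median-of-ratios rescaling 35 members were called, all lower, and with equal FPKM totals 2 were called higher and 16 lower. Both eKD2 libraries lay below both controls in 49 members and above them in 5, against 26.4% and 35.8% of all genes.

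COX6B1, a complex IV subunit on its intermembrane face (ENSG00000126267, chr19:36139225-36149684), had the largest fall. It measured 960 and 889 FPKM in the controls and 525 and 549 in eKD2, a change of -0.78 ± 0.06 (adjusted p = 0.0273). The eKD2 values lay under the normoxic ones of 682 and 631 as well, but that difference did not pass the limma test (-0.29, adjusted p = 0.0513). COX7C went from 2859 and 2683 to 1813 and 1851 FPKM (-0.60 ± 0.04, adjusted p = 0.0273). COX7B, a small subunit, went from 520 and 484 to 337 and 347 (-0.55 ± 0.05, adjusted p = 0.0295). COX5A, a matrix-side subunit, went from 353 and 344 to 265 and 257 (-0.42 ± 0.04, adjusted p = 0.0305). NDUFA4 went from 2174 and 2121 to 1662 and 1691 FPKM (-0.36 ± 0.03, adjusted p = 0.0285). Values in eKD2 were separate from control hypoxia in all 5 genes, but these were picked by smallest adjusted p, so this adds no support. Of the complex IV members COX4I1, COX5B and COX6A1 did not pass, with differences of -0.22, -0.24 and -0.26.

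Among the other complexes, the members with the smallest p in eKD2 were accessory or small subunits. These classes hold most of the members there, 29 of 35 in complex I and 5 of 9 in complex III, and were not compared by a test. NDUFC2, an accessory subunit of complex I, went from 383 and 366 FPKM in control hypoxia to 271 and 259 (-0.50 ± 0.05, adjusted p = 0.0305). NDUFS5, likewise accessory, went from 426 and 425 to 320 and 309 (-0.43 ± 0.04, adjusted p = 0.0287). UQCRH, the hinge protein of complex III, went from 553 in both libraries to 434 and 419 (-0.37 ± 0.04, adjusted p = 0.0305). SDHA fell from 126 and 123 to 99.5 and 95.2 (-0.35 ± 0.05, adjusted p = 0.0424), and its pseudogene SDHAP4 was at 51.3 and 54.1 and then at 36.9 and 33.0.

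Of the 6 core subunits of complex I, 4 lay below 0 in eKD2 and 2 above, and none was called lower. NDUFV2, an iron-sulfur core subunit and the only member called higher, went from 124 in both libraries of control hypoxia to 158 and 150 FPKM (0.31 ± 0.05, adjusted p = 0.0486), and it lost the call under median-of-ratios rescaling. NDUFS1 was at 61.6 and 63.9 in control hypoxia and 75.6 and 79.2 in eKD2 (0.30 ± 0.06, adjusted p = 0.0628). NDUFV1 was at 341 and 370 against 321 and 322 (-0.14, adjusted p = 0.182). The other core subunits NDUFS3, NDUFS7 and NDUFS8 had differences of -0.32, -0.27 and -0.21 (adjusted p = 0.143, 0.0524 and 0.2), each with both eKD2 libraries under both controls, beside an accessory median of -0.30. SDHB, CYC1 and UQCRFS1 had differences of -0.14, -0.24 and -0.02, and none passed. In transcripts under 1000 nt, 15 of 35 members (42.9%) were called lower in eKD2 against 23.6% of the other protein-coding genes of that class, and in longer ones 7 of 24 (29.2%) against 5.63%. Over the 59 members the rank correlation of the change in eKD2 was -0.59 with level and 0.35 with transcript length. The part of length or level in this result was not tested either.

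Between the 2 guides no member passed. In eKD2 against eKD1 0.403% of all genes were called, 62 of 15372. The median over members was -0.18 and over all genes 0.05, and 30 members had an unadjusted p under 0.05, 26 lower and 4 higher in eKD2, beside 23.6% of all genes. COX7C was at 2358 and 2325 FPKM in eKD1 and 1813 and 1851 in eKD2 (-0.35, adjusted p = 0.0755). NDUFB3, an accessory subunit, was at 289 and 280 against 208 and 217 (-0.42, adjusted p = 0.0779). COX6B1 was at 849 and 764 against 525 and 549 (-0.59, adjusted p = 0.0779). Libraries of the guides did not overlap in these genes, which were picked by smallest p, so this adds no support. The fit shared over 8 libraries called 15 members, 14 of them lower, and 9.05% of all genes. The comparisons of eKD1 and of eKD2 use the same control hypoxia libraries.

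Set against control normoxia, the median difference of the members in hypoxic eKD2 cells lay near that of all genes. In eKD2, 9 members were called against control normoxia, 7 higher and 2 lower, beside 19.3% of all genes called, 11.5% higher and 7.83% lower, and the medians were 0.08 for members and 0.07 for all genes. With median-of-ratios rescaling the split became 2 higher and 7 lower, and with equal FPKM totals 1 higher and 7 lower. In eKD1, 12 were called, 11 higher and 1 lower, beside 10.8% of all genes, 6.06% higher and 4.75% lower, with medians of 0.24 and 0.01; with equal FPKM totals 5 were called higher and 3 lower, and none in complex IV in place of 4. NDUFA7 was the highest in both, at 164 and 150 FPKM in eKD1 and 153 and 169 in eKD2 beside 89.9 and 93.5 in normoxia (0.77, adjusted p = 0.0284, and 0.81, adjusted p = 0.0177), with the RPS28 overlap named above. The 2 members lower in eKD2 than in normoxia were NDUFA8 and NDUFA9, accessory subunits of complex I, at -0.29 and -0.42. Condition and guide both differ in these comparisons and cannot be told apart.

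Genes around the chain were described from lists drawn up with it. In ATP synthase, complex V, 8 of 15 subunits rose in hypoxia (median 0.23) and 8 of 15 fell in eKD2 (median -0.27). Of all genes tested, 16.2% were called higher in hypoxia and 3.81% lower in eKD2. Both counts depended on the scaling. With equal FPKM totals 3 were called higher in hypoxia and 2 lower, at a median of -0.01, beside 10.2% and 25.7% of all genes. ATP5B and ATP5C1 then turned to the other direction. In eKD2, 4 in place of 8 were then called lower, beside 2.8% of all genes. ATP5L was at 617 and 631 FPKM in normoxia, 985 and 954 in control hypoxia, and 759 and 745 in eKD2. Its largest rises in hypoxia were ATP5L, ATP5I and ATP5E, at 0.63, 0.56 and 0.54. Of 47 assembly factors, which build the complexes without remaining in them, 8 were called higher in hypoxia and 7 lower (median 0.05). In all, 31.9% of them were called, near the 32.2% of all genes (16.2% higher and 16% lower). With equal FPKM totals 4 were called higher and 13 lower, beside 10.2% and 25.7% of all genes. COX20, a chaperone of a mitochondrially encoded complex IV subunit, went from 14.8 and 11.5 to 38.9 and 30.2 FPKM (1.33, adjusted p = 0.0187). NDUFAF4, a complex I assembly factor, fell from 58.0 and 72.3 to 33.2 and 35.2 (-0.90, adjusted p = 0.0186), and in eKD2 it was higher than in control hypoxia, at 69.4 and 58.5 (0.88, adjusted p = 0.0351). SDHAF1, which serves complex II, rose in hypoxia from 6.58 and 7.06 to 12.2 and 13.6 (0.83, adjusted p = 0.0189). In eKD2 NDUFAF4 was the only 1 of the 47 assembly factors called higher, and 1 was called lower. The 2 calls made 4.26% of the list, beside 9.61% of all genes (5.8% higher and 3.81% lower).

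Among 12 regulators of mitochondrial genes, 4 fell in hypoxia, 1 rose and 7 did not pass, with a median of -0.35. Of all genes 16% were called lower and 16.2% higher. With median-of-ratios rescaling 3 fell, beside 16.1% of all genes called lower, and with equal FPKM totals 7, beside 25.7%. PPRC1, a coactivator of the PGC1 family, went from 32.3 and 38.8 FPKM to 15.1 and 14.8 (-1.19, adjusted p = 0.0106). TFB2M, a mitochondrial transcription factor, went from 13.5 and 16.3 to 6.88 and 6.55 (-1.04, adjusted p = 0.0164), and TFAM, which packages mitochondrial DNA, from 38.4 and 44.3 to 22.7 and 25.6 (-0.75, adjusted p = 0.0207). GABPA, an ETS factor, also fell (-0.45) and was named after its values were seen. No link between a regulator and the motifs above was tested. LONP1, a mitochondrial protease reported to degrade COX4I1 in hypoxia, rose from 121 and 125 to 188 and 207 FPKM (0.68, adjusted p = 0.0106). In eKD2 1 regulator passed, YY1, at 76.4 and 80.9 in control hypoxia and 99.4 and 99.5 in eKD2 (0.34). Its call was lost with median-of-ratios rescaling. Of all genes 9.61% were called in eKD2. NRF1 had the largest rise of the regulators there, 0.63, and did not pass.

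Of 6 further electron transport proteins, 2 fell in hypoxia and 1 rose, beside 16% of all genes called lower and 16.2% called higher. HIGD1A, an inner membrane protein that associates with complex IV, fell from a mean of 23.6 ± 2.08 FPKM (SD, n = 2) to 13.8 ± 0.636 (-0.73, adjusted p = 0.0199). CYCS, cytochrome c, fell from 374 and 393 to 310 and 305 (-0.32, adjusted p = 0.0184). COX7A2L, which joins complexes III and IV, rose from 86.4 and 93.2 to 130 and 129 (0.52, adjusted p = 0.0134). None of the 6 passed the limma test in eKD1 or eKD2. In each, 2 of 6 had an unadjusted p under 0.05, beside 21.7% of all genes in eKD1 and 32.8% in eKD2.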

How the data were processed

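RNA-seq was analysed in 8 libraries of SK-N-MC cells, grouped and numbered from the sample titles. The authors prepared poly-A selected libraries, aligned single-end reads to GRCh37 (hg19 in the submitters' notes) with STAR, and derived gene values with cufflinks and cuffnorm. The authors ran DESeq2 on raw counts for their own tests, which were not used here. The deposited values are FPKM; cuffnorm's scaling between libraries is not given in the sources used here. FPKM divides by transcript length, and cufflinks shares reads among overlapping genes and near copies. The table holds no counts, so no counting interval or floor was computed; relative depth was read from the steps between low values.

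Values were analysed as log2(FPKM + 1), which understates changes of low genes. A gene was tested if 2 or more of the 8 libraries reached 1 FPKM (15372 genes). Each of 6 comparisons was fitted on its own 4 libraries with limma 3.58.1 in R 4.3.3 (eBayes with a variance trend), with two-sided p-values adjusted by Benjamini-Hochberg over every gene tested. Simulated data with known changes were used to test the fit. SE is that of the fit. Where SDHD had 2 rows, the higher was used. Positions, transcript lengths and promoters were read from GRCh37 with GENCODE 44 lifted to it, whose identifiers matched 98% of rows; 23 of the 59 members overlap another coding gene and 36 have named pseudogenes. Members, lists and motifs were chosen with earlier results of these data known. Genes were named by a rule: per complex, the 3 largest called rises and falls in hypoxia; up to 8 called members with the smallest adjusted p in eKD1, eKD2 and eKD2 against eKD1, or the 3 with the smallest p where none passed; the catalytic subunits and isoform pairs; and up to 3 called genes of each neighbouring list. Others were named after their values were seen. No rows from the mitochondrial chromosome were used.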

Additional observations from a re-analysis of the deposited data

How the results depend on the processing

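In hypoxic control cells the 38 member calls became 28 to 39 when the scaling was altered and stayed within a factor of 1.5 in the other fits, other than those that left out a library, which gave 0 to 0. In eKD2 the 23 calls became 0 with no filter on low values (25117 genes tested), 0 with no variance trend, 35 with median-of-ratios rescaling, and 0 to 0 when each library was left out. In eKD1 the shared fit of all 8 libraries gave 4 calls in place of 0, and in eKD2 against eKD1 it gave 15 in place of 0. Against control normoxia, the 12 calls of eKD1 became 3 with no filter, 28 in the shared fit, 0 without the trend and 0 to 0 without a library; the 9 calls of eKD2 became 1 with no filter, 14 with the stricter filter at a mean of 5 FPKM, 20 in the shared fit, 1 without the trend and 0 to 0 without a library. Leaving out a library leaves 1 library alone in its group, which is then assumed to vary like the other group, and 0 of all genes tested were called in any such fit. Libraries with the same replicate number deviated from their group means with correlations of -0.057 to 0.126. No large shared effect of the number was seen, but such values cannot tell whether the cultures were paired. With the replicate block the calls were 26 in hypoxia and 0 in eKD2, in eKD1 against normoxia and in eKD2 against normoxia. Among called genes that the text names, ATP5B and ATP5C1 changed sign in hypoxia with equal FPKM totals, and ATP5C1 with equal protein-coding totals. The rescaling to equal totals over protein-coding genes was chosen after seeing the data. The cause of each change was not tested. With 2 libraries a group and no counts, differences under about the spread between libraries could not be detected.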
